A study of Danio rerio with 12 samples.

Results

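The regions described here are the accessible sites that lie within 2 Mb of a chromosome end in zebrafish (Danio rerio) embryos. For chromosomes 1 to 3 and 5 to 25, the highest peak end over all 12 peak lists was taken as the length of the chromosome. A peak was kept as terminal if it began in the first 2 Mb or ended in the last 2 Mb. Over the 12 lists this gave 287591 terminal peaks, of 3056596 peaks deposited, and 2671667 remaining peaks on the same 24 chromosomes served for comparison. The 48 ends add up to 96 Mb, which is 7.60% of the length of these chromosomes. Chromosome 4, whose long arm is late replicating and heterochromatic, was left out.

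ATAC-seq maps accessible chromatin with a transposase that cuts and tags DNA where nucleosomes leave it open. It was run on whole wild-type embryos, freed of chorion and yolk, so a signal averages over every cell type. The treated embryos were given 0.1 µM all-trans retinoic acid (atRA), and the controls the solvent dimethyl sulfoxide (DMSO). Embryos collected at 80% epiboly, during gastrulation, had been exposed since 30% epiboly. Those collected at the later stages, 12 somites and 24 hours after fertilization (24 hpf), had been exposed since 80% epiboly. Each of the 6 groups (80% epiboly atRA and DMSO, 12 somites atRA and DMSO, 24 hpf atRA and DMSO) had 2 libraries. Nothing states that these came from separate clutches, so the p-values measure the spread between libraries, which may be technical.

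A chromosome end carries telomeric repeats, and the DNA next to it, called subtelomeric, is often rich in repeats and duplicated sequence in vertebrates. In zebrafish, meiotic crossing over is concentrated toward chromosome ends, most strongly in males. Retinoic acid is a ligand of nuclear receptors that sit on DNA, and during gastrulation and segmentation it patterns the hindbrain and the trunk. Open chromatin marks promoters, enhancers and other sites where proteins displace nucleosomes.

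Lists held 154354 to 439137 peaks on chromosomes 1 to 25. Fragment totals are unknown. A background pileup that the peak caller had used was recovered for each peak from its deposited values, and the most frequent background of a list served as a measure of depth. It was 2.47 and 0.87 fragments in the 80% epiboly atRA libraries, against 3.18 and 3.28 in the DMSO libraries. At 12 somites it was 1.6 and 1.44 in atRA, against 0.69 and 1.15 in DMSO. At 24 hpf it was 2.03 and 1.98 in atRA, against 1.39 and 2.03 in DMSO. Depth thus separated the treatments at 80% epiboly and at 12 somites, in opposite directions.

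Accessible sites were denser near chromosome ends than in the rest of the chromosomes in 12 of 12 libraries. Peaks per Mb in the terminal 2 Mb were 1.31 times those elsewhere on average (log2 ratio 0.39 ± 0.09, SD, n = 12; exact sign-flip permutation test over libraries, two-sided, p = 0.000488, the smallest possible). The lowest ratio was 1.23, in 24 hpf DMSO replicate 2, and the highest 1.55, in 80% epiboly atRA replicate 2. Terminal density had a lowest value of 153.7, a median of 223.5 and a highest of 420.2 peaks per Mb over the libraries, against 113.4, 176.0 and 329.1 peaks per Mb in the rest.

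Because the lists differed in length, the best 50000 peaks of each list by −log10 p-value, called the top set, were compared next. Terminal density in the top set averaged 52.1 ± 3.92 peaks per Mb (SD, n = 12), against 37.3 ± 0.281 in the rest, a mean log2 ratio of 0.48 ± 0.12 (SD, n = 12; exact sign-flip permutation test, two-sided, p = 0.000488). The lowest of the 12 terminal densities, 46.7 peaks per Mb, lay above the highest of the remaining densities, 37.7 peaks per Mb. The fixed size of the top set holds the remaining densities close together, since most of its peaks lie there. All 12 libraries come from 1 genome assembly, so this test covers the libraries and not the chromosomes.

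On the mean of the libraries, density fell with distance from the end. Averaged over libraries, the top set had 68.9 ± 11.1 peaks per Mb (SD, n = 12) in the outermost 0.1 Mb, 60.5 ± 5.20 between 0.25 and 0.5 Mb, 48.6 ± 4.69 between 1 and 1.5 Mb, and 44.4 ± 4.15 between 1.5 and 2 Mb. It was 43.8 ± 3.12 between 2 and 3 Mb, 38.5 ± 3.61 between 3 and 5 Mb, and 36.8 ± 1.47 beyond 10 Mb. Not every library followed this course. In the 80% epiboly DMSO libraries density did not fall over the first 0.5 Mb, with 51.5, 53.2 and 54.0 peaks per Mb in replicate 1 and 49.6, 50.3 and 52.25 in replicate 2 from the outermost interval inward. In these libraries and in those of 24 hpf, density between 3 and 5 Mb (34.1 to 37.0) was below that beyond 10 Mb (37.9 to 38.4). Between 2 and 3 Mb, just outside the terminal regions, density was above that beyond 10 Mb in 12 of 12 libraries.

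In the outermost 0.1 Mb, 3 of the 4 libraries of 80% epiboly stood below all libraries of the later stages, which overlapped each other. At 80% epiboly it held 53.1 and 79.6 top-set peaks per Mb in the atRA libraries, against 51.5 and 49.6 in the DMSO libraries. At 12 somites the values were 72.1 and 74.8 in atRA, against 78.3 and 74.0 in DMSO. At 24 hpf they were 73.75 and 77.9 in atRA, against 75.4 and 67.1 in DMSO. The library of 80% epiboly that did not stand below was atRA replicate 2, the shallowest of that stage. Between 0.5 and 2 Mb from the end, both atRA libraries at 80% epiboly lay above both DMSO libraries in each of the 3 intervals, for example with 55.0 and 53.1 against 45.6 and 45.75 peaks per Mb between 1 and 1.5 Mb. The same order held outside the terminal regions, from 2 to 10 Mb, for example with 47.7 and 45.25 in atRA against 41.3 and 42.4 in DMSO between 2 and 3 Mb. Beyond 10 Mb it was turned round, with 35.3 and 35.7 in atRA against 38.1 and 37.9 in DMSO. As every top set has the same size, more peaks nearer the ends leave fewer for the centre, so this reversal is no separate result.

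**Figure D1:**
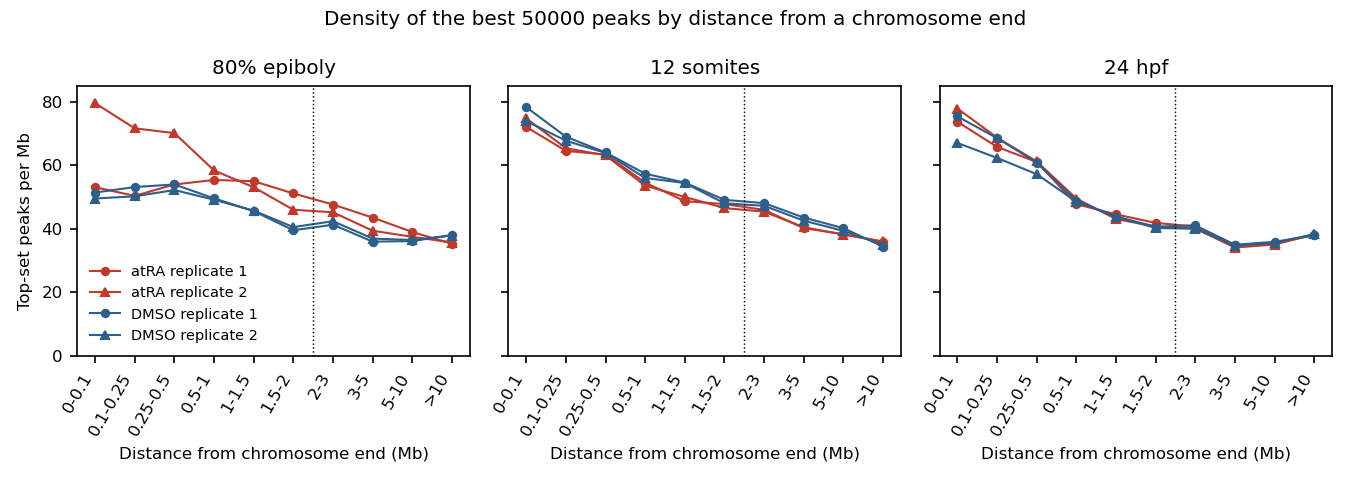
Top-set peaks per Mb (vertical axis, linear) by distance from the nearer chromosome end in Mb (horizontal axis, intervals of unequal length), with 1 line per library and 1 panel per stage. The dotted line marks 2 Mb. In the outermost interval 80% epiboly atRA replicate 2 reaches 79.6 peaks per Mb, against 49.6 to 53.1 in the other 3 libraries of its stage, and all lines approach 34.4 to 38.4 beyond 10 Mb.

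The excess was spread over most ends. The chromosomes were tiled into 619 windows of 2 Mb, of which 48 were ends and 571 interior. On the mean of 12 libraries, 46 of 48 ends had more top-set peaks than the median interior window of their own chromosome, and on 22 of 24 chromosomes both ends did. In single libraries the count was 36 to 48 ends, and it was lowest in the DMSO libraries of 80% epiboly, with 39 and 36 ends. The ends had between 34 and 70.8 peaks per Mb with a median of 51.4, against 10.1 to 65.0 and a median of 37.25 in interior windows. Of the tenth of windows with the most peaks, 24 were ends and 38 interior.

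The 5 densest ends were the right end of chromosome 10, the left end of 22, the right end of 11, and the left ends of 25 and 21, where left means low coordinates. The right end of chromosome 10 (43573913 to 45573912) had 70.8 ± 4.74 peaks per Mb (SD, n = 12), the most of all 619 windows and 2.02 times the median interior window of chromosome 10. The left end of chromosome 22 (1 to 2000000) had 69.2 ± 6.80, the right end of chromosome 11 (43106994 to 45106993) 68.75 ± 5.84, the left end of chromosome 25 68.3 ± 6.93 and the left end of chromosome 21 67.9 ± 4.88 peaks per Mb (SD, n = 12 each). These 5 means differ by less than the SD of the densest end.

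The 5 sparsest ends were all left ends. Chromosome 7 had 34 ± 7.20 peaks per Mb in its first 2 Mb (SD, n = 12), below the interior median of 38.6 on that chromosome. Chromosome 24 had 36.4 ± 3.21, chromosome 20 38.25 ± 3.24, chromosome 23 39.2 ± 3.52 and chromosome 3 39.3 ± 8.29 peaks per Mb (SD, n = 12 each). The left end of chromosome 23 was the other end not above its interior median, at 0.995 times it. Left ends as a whole had a median of 50.2 peaks per Mb and right ends 52.4, and the left end was the denser on 10 of 24 chromosomes.

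**Figure D2:**
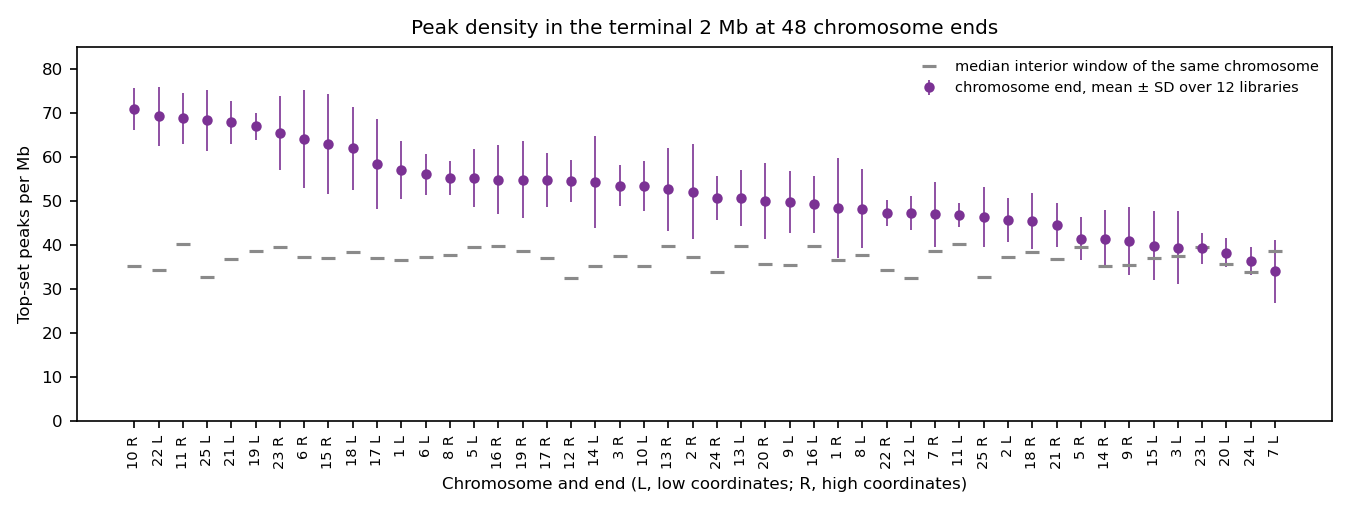
Top-set peaks per Mb (vertical axis) in the terminal 2 Mb of each of the 48 ends, ordered from the densest (10 R, 70.8) to the sparsest (7 L, 34), as the mean with SD over 12 libraries. Grey bars give the median interior 2 Mb window of the same chromosome, which all ends but 23 L and 7 L exceed.

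Some ends varied widely between groups. The coefficient of variation over the 12 libraries was 4.64% to 23.3% with a median of 12.3% at the ends, against a median of 13.2% in interior windows. The left end of chromosome 7 had 43 and 45 peaks per Mb in the 80% epiboly atRA libraries, against 27 and 29 in the DMSO libraries. At 12 somites it had 34 and 37.5 in atRA, against 41.5 and 40 in DMSO, so both atRA libraries were above DMSO at the first stage and below it at the second. The left end of chromosome 14 changed with stage, an example chosen after its values were seen. It had 40 and 47.5 peaks per Mb in atRA and 42.5 and 44 in DMSO at 80% epiboly, and 53 and 58 in atRA and 47 and 51.5 in DMSO at 12 somites. At 24 hpf it had 67 and 68 in atRA and 68.5 and 64 in DMSO, above all 8 libraries of the earlier stages.

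Within a list, terminal peaks ranked slightly better than the others by −log10 p-value. The median percentile rank, where 100 is the best peak, was higher at the ends by 1.90 ± 1.12 percentile points (SD, n = 12; exact sign-flip permutation test, two-sided, p = 0.000488, higher in 12 of 12 libraries). The difference was smallest in the 80% epiboly atRA libraries, at 0.591 and 0.0709 points, and largest in the 12 somites DMSO libraries, at 4.16 and 3.52 points. The median fold was lower at the ends in 10 of 12 libraries, for example 4.40 at the ends and 4.73 elsewhere in 80% epiboly atRA replicate 1. Ranked by fold enrichment instead, terminal peaks stood 2.87 percentile points lower than the others (exact sign-flip permutation test, two-sided, p = 0.00635), so the direction depends on the measure. At a given background the −log10 p-value grows with the pileup. The median summit pileup was higher at the ends in 11 of 12 libraries and equal in 24 hpf atRA replicate 2. The background, described below, was also higher at the ends, so it was not the same on both sides. What pileup and background each contributed to the rank was not tested.

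Over all peaks of a list, terminal peaks were also wider, by 4.92 ± 2.02 bp in the median (SD, n = 12). This passed the test (exact sign-flip permutation test, two-sided, p = 0.000488). In the libraries of 80% epiboly the median widths were 205 and 202 bp at the ends in atRA (197 and 200 bp elsewhere) and 202 bp at the ends in both DMSO libraries (194 and 195 bp elsewhere). At 24 hpf the difference was 3 bp in both atRA libraries and 4 bp in both DMSO libraries. These differences are small beside the width of a peak. In the top set the mean difference was 5.17 bp (exact sign-flip permutation test, p = 0.0234), and lay mainly at 80% epiboly. In atRA of that stage the medians were 374 and 303 bp at the ends, 356 and 299 bp elsewhere. At the later stages the largest gap was 313 against 308 bp, in 24 hpf DMSO replicate 2. The medians were equal in 12 somites DMSO replicate 1 and 24 hpf atRA replicate 2. Terminal peaks were slightly narrower in 12 somites DMSO replicate 2 and 24 hpf DMSO replicate 1.

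The caller's background, which is what a peak is measured against in its own library, was higher at terminal peaks. This comparison was added after the data were seen. The median background at terminal peaks was 1.26 times that at the remaining peaks (mean log2 ratio 0.34 ± 0.16, SD, n = 12; exact sign-flip permutation test, two-sided, p = 0.000488). In 80% epiboly atRA replicate 1, for example, it was 3.97 fragments at the ends and 2.79 elsewhere. In every library fewer terminal than remaining peaks stood on the most frequent background of the list, at 15.4% to 29.9% against 31.4% to 46.1%. The gap was narrowest in the 24 hpf atRA libraries, at 29.2% and 29.9% against 33.6% and 31.4%. The elevation was steepest at the very ends: in the outermost 0.1 Mb the median background was 2.39 times the most frequent one in atRA and 2.40 times in DMSO at 80% epiboly, 2.11 times in atRA and 2.09 times in DMSO at 12 somites, and 1.71 times in atRA and 1.88 times in DMSO at 24 hpf (means of 2 libraries). Beyond 10 Mb it was 1.04 to 1.17 times in all 6 groups. At 24 hpf the elevation did not extend over the whole terminal 2 Mb. Between 1.5 and 2 Mb it was 1.07 times in atRA and 1.13 times in DMSO there, below the 1.17 and 1.16 times beyond 10 Mb. At the earlier stages the background between 1.5 and 2 Mb was above that beyond 10 Mb in all groups. How the caller set this background is not stated, and no backgrounds away from peaks are known.

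The elevation of the background at the ends fell with stage. The ratio of medians was 1.42 and 1.43 in the atRA and 1.39 and 1.37 in the DMSO libraries at 80% epiboly. It was 1.30 and 1.29 in atRA and 1.33 and 1.31 in DMSO at 12 somites, and 1.07 and 1.04 in atRA and 1.15 and 1.12 in DMSO at 24 hpf. The 3 stages did not overlap. Their means were 1.40 ± 0.0272, 1.31 ± 0.0203 and 1.10 ± 0.0486 in order of development (SD, n = 4 each), and the largest difference between stage means, between 80% epiboly and 24 hpf, was 0.36 on the log2 scale (one-sided p = 0.000173 by exact permutation of the stages over the libraries, the smallest possible). Depth ranged from 0.87 to 3.28 at 80% epiboly, from 0.69 to 1.6 at 12 somites and from 1.39 to 2.03 at 24 hpf, and its part in the difference was not tested.

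The atRA and DMSO libraries did not overlap in this ratio within any stage, with atRA higher at 80% epiboly and lower at the later stages. Averaged over stages the difference was -0.03 on the log2 scale (exact permutation within stages, two-sided, p = 0.241), and did not pass the test. Without the 24 hpf stage it was 0.00657 (exact permutation, p = 0.778), so its sign rests on that stage. In both 24 hpf DMSO lists the peak names hold a word found in no other list. What it means is not given, and whatever it stands for cannot be told apart from treatment at that stage.

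The share of the top set that was terminal varied between groups. At 80% epiboly it was 10.6% and 11.4% in the atRA libraries, against 9.31% and 9.23% in the DMSO libraries. At 12 somites it was 10.69% and 10.67% in atRA, against 11.3% and 11.1% in DMSO. At 24 hpf it was 9.87% and 9.93% in atRA, against 9.87% and 9.57% in DMSO. Both atRA libraries were thus above DMSO at 80% epiboly and below it at 12 somites, and the groups overlapped at 24 hpf.

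Over the 3 stages the mean difference, atRA minus DMSO, was 0.446 percentage points (exact permutation within stages, two-sided, p = 0.296), which did not pass the test. By stage it was 1.71 points (80% epiboly), -0.543 points (12 somites) and 0.175 points (24 hpf). With 2 libraries against 2, no single stage can give p under 0.333. At each stage with separated groups, the libraries with the higher terminal share had the lower mean background pileup: 1.67 in atRA and 3.23 in DMSO at 80% epiboly, and 1.52 in atRA and 0.92 in DMSO at 12 somites. At these 2 stages depth and treatment cannot be told apart.

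Stage means of the terminal share were 10.1% ± 1.04, 10.9% ± 0.324 and 9.81% ± 0.160 in order of development (SD, n = 4 each). The largest difference, 1.14 points between 12 somites and 24 hpf, did not pass the test (one-sided p = 0.0814, exact permutation of the stages). Without 80% epiboly atRA replicate 2 the largest difference was another one, 1.25 points between 12 somites and 80% epiboly (exact permutation, p = 0.0390). All 4 libraries of 12 somites (10.67% to 11.3%) lay above all 4 of 24 hpf (9.57% to 9.93%). Depth ranged from 0.69 to 1.6 at 12 somites and from 1.39 to 2.03 at 24 hpf, and its part in this was not tested.

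**Figure D3:**
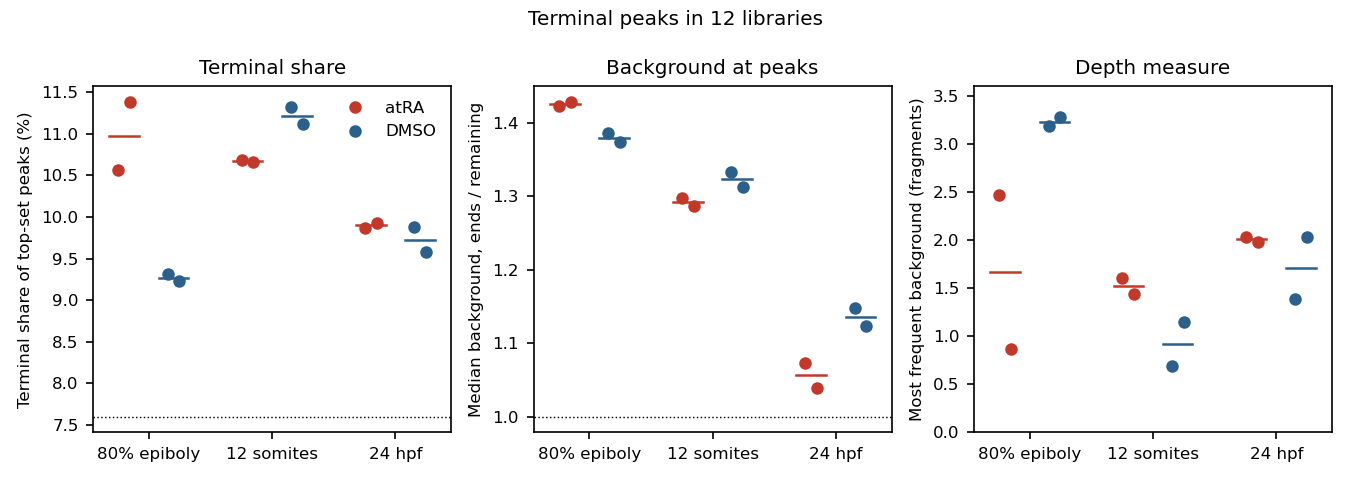
Terminal share of the top set in percent (left; the dotted line is the 7.60% of chromosome length that is terminal), ratio of the median background at terminal to remaining peaks (middle; the dotted line is 1), and most frequent background per list in fragments (right), with 1 point per library and bars at the mean of 2. The axes of the left and middle panels do not start at 0. The background ratio lies between 1.37 and 1.43 at 80% epiboly and between 1.04 and 1.15 at 24 hpf.

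The same top sets were then split by end. All ends share the same libraries, so counts of ends are no separate evidence of a shift in terminal share. At 80% epiboly both atRA libraries had more top-set peaks than both DMSO libraries at 35 of 48 ends, and at 0 ends fewer. Among all 619 windows of 2 Mb, 27.8% were higher in atRA without overlap and 31.8% lower. The median difference between group means was 8.75 peaks per Mb at the ends and -0.5 in interior windows. With 1 library left out the rule is looser. In turn this gave 35 to 45 ends higher and 0 to 6 lower, where 31.8% to 47.3% of all windows were higher and 37.3% to 44.4% lower. The 45 higher ends appeared without atRA replicate 1, where 34.9% of all windows were higher and 44.4% lower. The 6 lower ones appeared without atRA replicate 2, where 47.3% of all windows were higher and 41.5% lower.

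At 12 somites the order was turned round. Both atRA libraries were lower at 26 of 48 ends and higher at 8, where 34.4% of all windows were lower and 32.1% higher. The median difference was -3.75 peaks per Mb at the ends and 0 in interior windows. The differences in depth given above run along with both shifts. At 24 hpf 13 of 48 ends were higher and 3 lower in atRA, where 14.7% of all windows were higher and 18.1% lower, and the median difference was 1.125 peaks per Mb at the ends against -0.25 elsewhere. Without 24 hpf DMSO replicate 2 there were 20 ends higher and 17 lower, where 33.0% of all windows were higher and 34.6% lower, so the imbalance at that stage rests on that library.

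Between stages, all 4 libraries of 24 hpf lay below all 4 of 12 somites at 23 of 48 ends and above them at 4, where 30.2% of all windows were lower and 25.5% higher. Between 80% epiboly and 12 somites few ends separated, 3 above and 0 below at 12 somites, where 7.75% of all windows were above and 6.46% below. At 24 hpf against 80% epiboly, 8 ends were above and 12 below, where 21.0% of all windows were above and 25.2% below. The part of depth in these differences between stages was not tested.

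**Figure D4:**
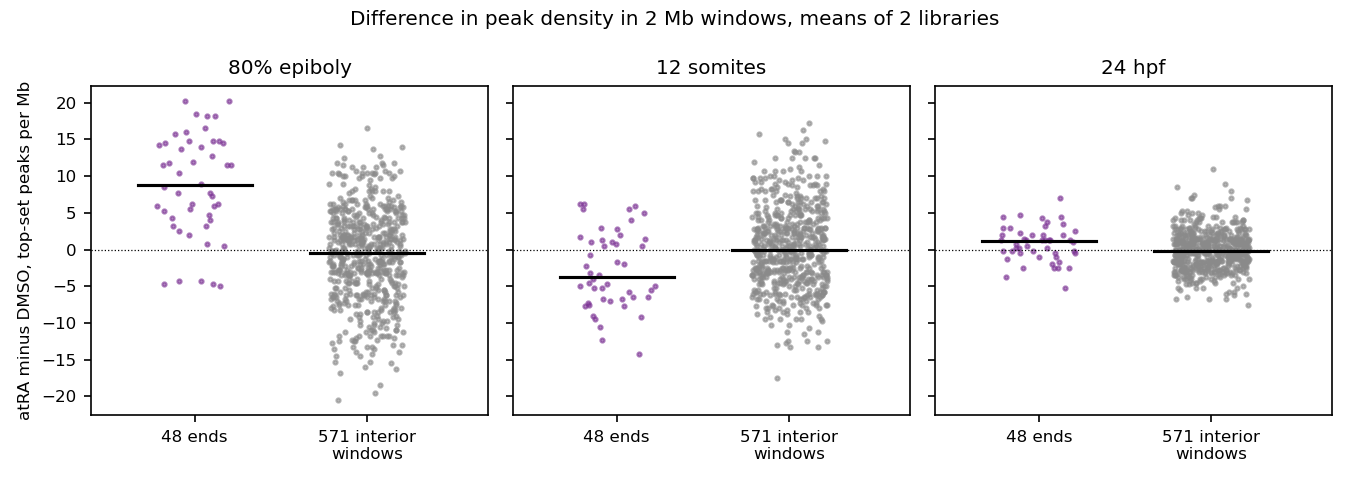
Difference in top-set peaks per Mb, atRA minus DMSO (vertical axis, means of 2 libraries each), for the 48 terminal and the 571 interior windows of 2 Mb, with 1 point per window and a bar at the median. The end medians by stage are 8.75 (80% epiboly), -3.75 (12 somites) and 1.125 (24 hpf), against -0.5, 0 and -0.25 in the interior.

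How often a terminal peak recurred in other libraries was compared next. Replicates had 79.3% of their terminal top-set peaks in common and 78.2% of the remaining ones, where a peak counted as shared if it overlapped by at least 1 bp. The difference of 1.12 ± 1.44 points (SD, n = 6 pairs) did not pass the test (exact sign-flip permutation test, two-sided, p = 0.125; the smallest possible is 0.0312). It was positive in 4 of 6 pairs, and negative in both pairs of 80% epiboly. With a top set of 100000 peaks it was 1.71 points and passed (exact sign-flip permutation test, p = 0.0312). It was 0.472 points when peaks were ranked by fold and 0.650 points with a reciprocal overlap of 50%. It did not pass in these (exact sign-flip permutation tests, p = 0.594 and 0.4375). Without either DMSO library of 12 somites it was 0.703 points (exact sign-flip permutation test, p = 0.25), where the 5 pairs left are too few to pass.

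Sharing across treatments at 1 stage was 76.8% for terminal and 75.2% for remaining peaks over 12 pairs. The mean difference was 0.135 points at 80% epiboly, 3.11 at 12 somites and 1.44 at 24 hpf, and 3 stages cannot give an exact p under 0.25, the value found. Sharing across stages within a treatment was 65.9% for terminal and 63.8% for remaining peaks. The terminal peaks were shared more in 24 of 24 such pairs, by 2.15 points in atRA and 2.17 points in DMSO. Regions merged over the 12 top sets covered 4.38% of the terminal length and 3.18% of the rest. Overlap that arises from coverage alone was not taken off. The mean of 2.16 points was 0.317 points when peaks were ranked by fold and 0.597 points with a reciprocal overlap of 50%. These pairs reuse the same libraries, and with 2 treatments no test can go under an exact p of 0.5.

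Merged over the 12 top sets, there were 108644 regions, of which 10690 were terminal. Of the terminal regions, 16.5% were in the top set of all 12 libraries, against 15.1% of the remaining regions and 15.3% of all. Those in a single library made up 23.5% of terminal and 24.4% of remaining regions. Neighbouring terminal regions lay closer together, with a median gap of 5691 bp against 6918 bp, and 13.4% of gaps were at most 1 kb, against 10.1% elsewhere.

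Few terminal regions were particular to 1 stage, meaning in the top set of all 4 of its libraries and in the best 100000 peaks of none of the other 8. For 80% epiboly there were 36 such terminal regions, 0.337% of them, where 0.347% of all regions were particular to that stage. For 12 somites there were 6, or 0.0561%, where 0.0423% of all regions were. For 24 hpf there were 5, or 0.0468%, where 0.0764% of all regions were. These shares were not tested against each other.

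The best of these at 12 somites was a 269 bp region near the right end of chromosome 12 (47650588 to 47650856). Coordinates are those of the deposited lists, on GRCz10 as the submitters' processing notes name it. Its fold enrichments, which like all folds per peak are the authors' own values, were 19.2 and 19.6 in the 12 somites atRA libraries and 17.4 and 19.5 in the DMSO libraries of that stage. The only peak at another stage was in 80% epiboly atRA replicate 1, with a fold of 5.04. The best region particular to 80% epiboly, near the right end of chromosome 3 (61284524 to 61284918), had folds of 7.67 and 11.4 in atRA and 7.55 and 7.04 in DMSO. Weaker peaks were there in 12 somites atRA replicate 2 (fold 4.22), 24 hpf atRA replicate 2 (3.88) and 24 hpf DMSO replicate 2 (3.64). The best one particular to 24 hpf, on chromosome 12 at 830617 to 831005, had folds of 8.56 and 8.41 in atRA and 11.1 and 10.9 in DMSO. It had weaker peaks in both 80% epiboly DMSO libraries (folds of 4.31 and 4.44). At 12 somites it had them in both atRA libraries (3.84 and 4.51) and in DMSO replicate 2 (4.64).

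The strongest terminal regions were chosen by their worst rank over the lists, so each has a strong peak in every library. The region on chromosome 17 at 53292556 to 53292910, 47.4 kb from the right end, ranked between 2 and 33 of all peaks in the 12 lists, with a median fold of 24.8. The region on chromosome 5 at 826069 to 826689 ranked between 1 and 304, and was at rank 1 or 2 in all 4 libraries of 24 hpf. Regions on chromosome 1 at 1253801 to 1254558, chromosome 13 at 695569 to 695988 and chromosome 8 at 1669804 to 1670272 completed the best 5, with worst ranks of 213, 296 and 305. What lies at these positions was not analysed here.

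Each right end was set here by the last peak, so a peak at a right end follows from the rule, and the assembly's own right ends were not known. The terminal region nearest to an end that was in the top set of all 12 libraries was the last one of chromosome 6 (60270302 to 60270672), whose peak end defined the length of that chromosome here. It ranked from 3214 to 18193. The next was on chromosome 3 at 346 to 1348. Its folds were 15.6 and 15.3 in atRA and 18.3 and 18.3 in DMSO at 80% epiboly, 16.9 and 16.2 in atRA and 12.4 and 15.0 in DMSO at 12 somites, and 6.92 and 5.71 in atRA and 8.77 and 7.60 in DMSO at 24 hpf. All 4 folds at 24 hpf were below the 8 of the earlier stages.

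Regions gained with atRA belonged to the top sets of both atRA libraries of a stage and to the best 100000 peaks of neither DMSO library, and lost regions the reverse. At 80% epiboly 41 of 7260 terminal regions were gained, or 0.565%, where 0.573% of all regions were gained. Only 20 terminal regions were lost, or 0.275%, against 563 of 63233 remaining regions, or 0.890%, where 0.827% of all regions were lost. Thus 3.43% of the lost regions lay near an end, where 10.3% of all regions did. As at 12 somites, depth separated the treatments here, with 2.47 and 0.87 in atRA against 3.18 and 3.28 in DMSO. Depth and treatment cannot be told apart. The low share lost is also not independent of the higher terminal share of the atRA top sets, since the same top sets define it. The terminal share of regions lost was below that of the remaining regions with each of the 4 libraries left out in turn, at 0.771% to 1.28% against 1.84% to 3.11%. The terminal share of regions gained was 1.02% to 4.64% in these settings, against 0.916% to 2.99% of remaining regions, and stood furthest above without atRA replicate 1, at 4.64% against 2.99%.

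At 12 somites 35 of 7775 terminal regions were gained, or 0.450%, where 0.613% of all regions were, and 24 were lost, or 0.309%, where 0.237% of all were. At 24 hpf 15 of 6783 were gained, or 0.221%, where 0.210% of all were, and 14 lost, or 0.206%, where 0.331% of all were. The order of terminal and remaining shares lost was not stable when a library was left out. At 12 somites 3.88% of terminal and 4.21% of remaining regions were lost without DMSO replicate 2, and 0.797% and 0.858% without atRA replicate 2, so the terminal share was then the lower. At 24 hpf the terminal share was the higher without atRA replicate 1, at 1.67% against 1.62%, and without DMSO replicate 2, at 2.15% against 2.13%. For gains at 24 hpf it was the higher only without DMSO replicate 1, at 0.826% against 0.692%. When mixed pairs, each of 1 atRA and 1 DMSO library, were set against each other by the same rule, 0% to 0.0689% of terminal and 0.00633% to 0.0395% of remaining regions were called at 80% epiboly. These shares were 0.0772% to 0.167% and 0.0726% to 0.116% at 12 somites, and 0.0442% to 0.177% and 0.103% to 0.201% at 24 hpf. The terminal shares by treatment exceeded those of mixed pairs at each stage, and by the least at 24 hpf.

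Over all stages 0.683% of terminal and 0.956% of remaining regions were gained or lost. The difference of -0.273 points was no excess of changes at the ends (exact permutation over 27 combinations of splits, one-sided for an excess, p = 1). It was the lowest of the 27, with -0.249 next and 0.0064 the highest (exact permutation, one-sided for a deficit, p = 0.0370, the smallest possible). Mixed pairs called fewer regions, which shrinks their differences whatever the sign, so this test decides little on either side. The difference was -0.0888 points without 80% epiboly atRA replicate 1.

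**Figure D5:**
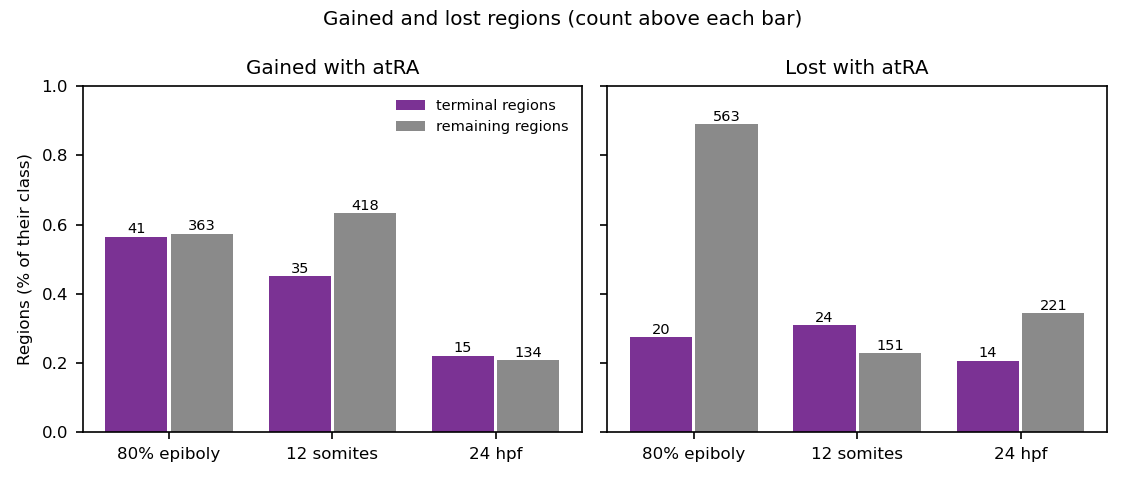
Regions gained (left panel) and lost (right panel) with atRA as a percentage of the terminal and of the remaining regions of each stage (vertical axis from 0), with the count above each bar. At 80% epiboly 20 terminal regions were lost (0.275%), against 563 remaining regions (0.890%).

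The gained regions were scattered: at 80% epiboly 24 of 48 ends had at least 1, and no end had more than 4. The best-ranked was on chromosome 15 at 46547973 to 46548307, with folds of 11.2 and 11.8 and summit pileups of 57 and 34 in atRA, against folds of 3.59 and 4.44 and pileups of 14 and 18 in DMSO. The second, on chromosome 12 at 1983531 to 1983979, had folds of 10.3 and 10.5 in atRA, against 6.35 and 5.13 in DMSO. At 12 somites this second region was among the best 50000 peaks in 3 libraries, both of atRA and DMSO replicate 2, with folds of 9.09 and 10.9 in atRA and 5.83 and 7.48 in DMSO.

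The best-ranked terminal regions lost at 80% epiboly were on chromosome 17 at 52617198 to 52617939 and on chromosome 12 at 48346777 to 48347012. The one on chromosome 17 had folds of 5.56 and 4.03 in atRA, against 8.30 and 8.95 in DMSO. The one on chromosome 12 had a single peak in the atRA libraries, in replicate 1 with a fold of 5.35, against 8.40 and 8.29 in DMSO. It had a peak in all 4 libraries of 12 somites and in none of 24 hpf.

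At 12 somites the best-ranked gained region lay on chromosome 25 at 251216 to 251473, with folds of 8.33 and 9.00 in atRA against 3.93 and 4.42 in DMSO, and no peak in any library of 80% epiboly. At 24 hpf its folds were 5.29 and 5.56 in atRA, against 8.24 in DMSO replicate 1 and no peak in DMSO replicate 2. The best-ranked lost regions of 12 somites were on chromosome 25 at 1616022 to 1616235 (folds of 4.61 and 4.51 in atRA, 7.41 and 9.17 in DMSO) and on chromosome 7 at 907967 to 908253 (3.84 and 5.74 in atRA, 7.11 and 10.2 in DMSO). At 24 hpf the best-ranked gained region, on chromosome 17 at 732812 to 733309, had folds of 9.88 and 6.88 in atRA, no peak in DMSO replicate 1 and a fold of 4.30 in DMSO replicate 2. At 80% epiboly this region had the opposite order, with a fold of 11.3 and no peak in atRA against 14.7 and 14.4 in DMSO. The second gained at 24 hpf, on chromosome 25 at 35817610 to 35817813, had folds of 4.50 and 4.64 in atRA against 3.46 and 2.84 in DMSO. The best-ranked lost region of 24 hpf, on chromosome 15 at 1205587 to 1205846, had no peak in the second atRA library and a fold of 3.90 in the first, against 8.83 and 7.71 in DMSO.

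A single region on chromosome 24 was the second best gained at 12 somites (41409480 to 41409733) and the second best lost at 24 hpf (41409486 to 41409718). At 12 somites it had folds of 12.7 and 11.5 in atRA and no peak in either DMSO library. At 24 hpf it had no peak in atRA replicate 1 and a fold of 3.36 in atRA replicate 2, against 9.19 and 10.5 in DMSO. At 80% epiboly its only peak was in atRA replicate 1, with a fold of 8.65. The atRA libraries were thus higher at 12 somites and lower at 24 hpf, and no single region was tested.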

How the data were processed

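ATAC-seq was measured in 12 libraries of whole zebrafish embryos. Bowtie2, SAMtools and MACS2, and the build GRCz10 (danRer10), are named by the submitters' processing notes, with no versions or settings. Each library has a peak list of its own, with no pooling of replicates. As deposited by the authors, a list holds a fold enrichment (a ratio to the caller's background), −log10 p-values and −log10 q-values, a score, and the summit position. Peak names contain a word for nucleosome-free fragments; how these were chosen, any read shift, and the treatment of reads that map to several places are not given in the sources used here. Whether reads that map to several places contributed near chromosome ends was not tested.

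Peaks were ranked within each list over chromosomes 1 to 25 by −log10 p-value, then fold, then position; the first 50000 are the top set, regions were sought as absent among the first 100000, and shares refer to the 24 chromosomes of the rule. A whole-number summit pileup and a background were solved for each peak from its fold, taken as a ratio with 1 added to both, and its −log10 p-value, taken as a Poisson upper tail. Solutions were found for 100% of peaks within 0.001. The lists give no fragment totals, so no counting intervals are given, and a missing peak means below the caller's threshold. Tests were exact permutations over libraries: sign flips within libraries or pairs, treatment labels within stages, or stage labels. Python 3.11.15, NumPy 2.4.6, pandas 2.3.3, SciPy 1.17.1 and matplotlib 3.10.9 were used, and the functions were tested on simulated lists. Sequence, base composition and genes of these regions were not analysed here.

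The members, measures and alternatives were chosen with earlier results of these data known. Named ends are the 5 densest and 5 sparsest. Named regions are the 5 of best worst rank, the 2 nearest to an end, the 2 best per stage gained or lost, and the best per stage particular to it. Exceptions are marked as chosen after their values were seen.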

Additional observations from a re-analysis of the deposited data

Results flagged for a closer look

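The effect of atRA on the terminal share of the top set had opposite signs at 80% epiboly (10.6% and 11.4% in atRA, 9.31% and 9.23% in DMSO) and 12 somites (10.69% and 10.67% in atRA, 11.3% and 11.1% in DMSO), with no overlap at either stage. The effects were 2.25 points apart. The pair of stages was picked after its opposite signs were seen. Opposite signs with no overlap at either stage always give the smallest p that 36 labelings allow (exact permutation, two-sided, p = 0.0556), so this p is no separate evidence. Mean background pileups, a measure of depth, were 1.67 in atRA and 3.23 in DMSO at 80% epiboly and 1.52 in atRA and 0.92 in DMSO at 12 somites; depth and treatment cannot be told apart there.

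The ratio of the background at terminal to remaining peaks was higher in both atRA libraries than in both DMSO libraries at 80% epiboly, and lower at 12 somites and at 24 hpf. The effect at 80% epiboly exceeded that at 12 somites by 0.0771 and that at 24 hpf by 0.125 in the ratio. These differences between stages were not tested.

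In 24 hpf DMSO replicate 2 the terminal share, 9.57%, stood apart from the other 3 libraries of its stage (9.87% to 9.93%). Chance gives such a gap in about 1 of 20 groups, and 12 groups were examined.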

How the results depend on the processing

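The background comparisons and the setting without the 24 hpf stage were added after the data were seen. Terminal density kept its direction and its call in all settings run, from 0.24 to 0.48 (log2 ratio, all peaks) and from 0.25 to 0.61 (top set). Terminal rank was 0.516 points with a window of 5 Mb (exact permutation p = 0.242) and -2.87 points when ranked by fold. The largest difference in terminal share between stages was 3.10 points with a window of 5 Mb (exact permutation p = 0.0210). That window takes in more of each chromosome, so its shares are larger and its points are not on the scale of those with 2 Mb. Replicate sharing was 1.71 points with a top set of 100000 (exact permutation p = 0.0312). Stage sharing had an SD of 0.0111 points between the 2 treatment means. Single pairs ranged from 0.555 to 3.29 points in atRA and from 0.946 to 4.17 points in DMSO. Mean stage sharing was 2.57 points with a window of 1 Mb, 2.07 with 5 Mb, 2.28 with chromosome 4, 1.53 and 2.60 with top sets of 20000 and 100000, 0.317 ranked by fold and 0.597 with reciprocal overlap of 50%. The background difference between treatments was 0.00657 (log2) without the 24 hpf stage. Apart from these, no setting changed the direction or the call of a test over libraries, and the causes were not tested. The test for an excess of changed regions at the ends, which decides little for the reason given above, passed in none (exact permutation p = 0.815 to 1).

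Leaving out each library gave 1.01 to 1.25 points for the largest difference in terminal share between stages. It passed the test without 80% epiboly atRA replicate 2 (exact permutation p = 0.0390), where it lies between 12 somites and 80% epiboly in place of 12 somites and 24 hpf. The same settings gave 1.93 to 2.35 points for stage sharing and -0.656 to -0.0888 points for changed regions. No other call changed, but replicate sharing, with 5 pairs left, could not pass in any of these settings. Pairing same-numbered libraries as a replicate block left the treatment difference in terminal share at 0.446 points (exact permutation over 64 sign flips, p = 0.4375) and that in background at -0.03 (p = 0.3125, exact). Deviations of same-numbered libraries from their group means had correlations of -0.392, -0.0154 and -0.0996 over 619 windows at the 3 stages in order. With 2 libraries per group, a negative value for same-numbered libraries is the same positive value for the crossed order. The values thus gave no sign that the numbers pair the samples, and do not show whether samples shared a clutch or batch. The depth of the shallowest list, with a pileup of 10 at rank 50000, limits the top set.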
